A study of Mus musculus with 16 samples.

Results

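Transcripts of 10 genes of the BCL2 family were measured in multipotent progenitors of mouse bone marrow. The genes were taken by name, with earlier results of these data known, and are 10 of the 47937 genes counted. All 10 had a mean above 100 counts in at least 1 group of libraries, the filter that 11831 genes passed for testing. They fall into 3 pro-survival genes (Bcl2, Bcl2l1 and Mcl1), 2 effectors (Bax and Bak1) and 5 BH3-only genes (Bcl2l11, Bad, Bid, Bbc3 and Pmaip1), the effectors and BH3-only genes together being called pro-death here.

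Proteins of this family decide whether the outer membrane of the mitochondrion is opened, the step that releases cytochrome c and activates caspases. Pro-survival members hold the effectors BAX and BAK and the BH3-only proteins in check, and BH3-only proteins, induced or activated by stress or by loss of growth factors, relieve that hold or activate the effectors. Early blood progenitors are known to depend on MCL1, and lymphoid cells on BCL2, for their survival.

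The samples were MPP3 and MPP4 cells, multipotent progenitors biased toward myeloid and lymphoid fates, from 8 C57BL/6 mice aged 9 to 12 weeks. Per the labels, 4 mice (WT) were Ebf1fl/fl Tie2Cre+/+ and 4 (KO) were Ebf1fl/fl Tie2Cre +/cre, so that all mice carried floxed alleles of Ebf1, a B lineage transcription factor, and those labelled KO also a Cre driven by the promoter of Tek (Tie2), active in endothelial and blood cells. The description of the series instead gives the transgene to both genotypes and unfloxed alleles to the WT mice, and gene counts cannot tell which holds. Each mouse gave 1 MPP3 and 1 MPP4 library, so there were 4 libraries in each of 4 groups, with 2 female and 2 male mice per genotype. WT mice 1 to 4 were 12, 11, 12 and 11 weeks old and KO mice 1 to 4 were 10, 9, 11 and 11 weeks old. Both populations were sorted as lineage-depleted, Sca1+ Kit+ cells that lacked CD150 and carried CD48, and the MPP4 gate of the labels added Flt3, while the MPP3 gate named no Flt3 limit.

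Libraries held 24823708 to 48703193 counts, and levels are given as normalised CPM, counts scaled by the TMM-adjusted library size. A count of 0 allows up to 3 counts, or 0.0616 to 0.121 CPM, for counting error only, and the lowest count of a member was 50. Flt3 was at 204 to 312 CPM in MPP3 and 935 to 1357 CPM in MPP4, and Slamf1, which encodes CD150, was at 0.201 to 3.48 CPM throughout. Summed levels of 6 lymphoid progenitor markers lay at 115 to 172 CPM in MPP3 and 1440.5 to 2179.8 CPM in MPP4, and those of 6 myeloid progenitor markers at 5576 to 15499 CPM and 2077 to 3734 CPM. Ebf1 itself had 5 to 91 counts in MPP3 WT, 6 to 84 in MPP3 KO, 98 to 263 in MPP4 of WT and 488 to 928 in MPP4 of KO mice. In MPP4 its level was thus higher where the label says KO (log2 fold change 2.22, SE 0.64, FDR 0.188), a direction that goes against the label. The counts cover the whole gene, and whether they come from outside the deleted part was not tested. Genotypes are therefore given below as labelled.

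The members share a short helix, the BH3 domain, with which pro-death members bind a groove on pro-survival ones. Its core was located in the coding sequence of the principal transcript of each gene as the codon of a leucine, any 3 codons, a codon of glycine, alanine or serine, and the codon of an aspartate, and 1 such stretch stood in each of the 9 proteins printed. The sequences show the element that members of all 3 classes have in common. They are on the coding strand from GRCm38, with the leucine and aspartate codons in capitals, and run 3 codons past the pattern.
Bcl2: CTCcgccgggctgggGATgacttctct
Bcl2l1: CTGagagaggcaggcGATgagtttgaa
Mcl1: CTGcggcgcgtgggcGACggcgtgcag
Bax: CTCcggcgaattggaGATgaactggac
Bak1: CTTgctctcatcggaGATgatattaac
Bcl2l11: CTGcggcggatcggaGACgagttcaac
Bad: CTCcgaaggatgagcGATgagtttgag
Bid: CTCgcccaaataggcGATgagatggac
Bbc3: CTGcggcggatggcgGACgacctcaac

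These stretches lie in coding exons. On the reverse strand are those of Bcl2 (exon 1, chr1:106712575-106712601), Bcl2l1 (exon 2, chr2:152829697-152829723), Bax (exon 3, chr7:45465997-45466023), Bak1 (exon 4, chr17:27022531-27022557) and Bid (exon 4, chr6:120897289-120897315). On the forward strand are those of Mcl1 (exon 1, chr3:95659436-95659462), Bcl2l11 (exon 3, chr2:128147150-128147176), Bad (exon 3, chr19:6950792-6950818) and Bbc3 (exon 3, chr7:16313773-16313799). Pmaip1, which encodes NOXA, lies on chromosome 18 and held 2 matches to the pattern.

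Because longer transcripts collect more reads, levels of different genes were compared only as CPM per kb of the union of a gene's exons. On this scale Bax stood highest at 68.3 ± 7.09 (SD, n = 16 libraries), followed by Bid at 39.5 ± 4.12, Bak1 at 29.9 ± 4.03 and Bad at 23.0 ± 1.76. The pro-survival genes came next, with Bcl2 at 12.2 ± 3.30, Bcl2l1 at 10.9 ± 1.82 and Mcl1 at 10.3 ± 2.83. Bbc3 at 6.199 ± 2.20, Bcl2l11 at 1.95 ± 0.433 and Pmaip1 at 1.59 ± 0.738 were lowest. The effectors and the BH3-only genes Bid and Bad were thus the main family transcripts of both populations, and the BH3-only genes Bbc3, Bcl2l11 and Pmaip1, which encode PUMA, BIM and NOXA, were scarce.

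Some neighbours in this order could not be separated. Bax lay above Bid in 16 of 16 libraries and Bad above Bcl2 in 16 of 16, in each case with ranges that did not overlap. Bid lay above Bak1, and Bak1 above Bad, in 15 of 16 libraries, with overlapping ranges. Bcl2 lay above Bcl2l1 in 8 libraries, Bcl2l1 above Mcl1 in 8, and Bcl2l11 above Pmaip1 in 10 of 16, so these neighbours did not differ beyond their spread. The 8 libraries with more Bcl2 than Bcl2l1 were the 8 MPP4 libraries. In MPP3 the 3 pro-survival genes overlapped, in the order Bcl2l1 at 12.0 ± 1.98, Mcl1 at 10.3 ± 3.30 and Bcl2 at 9.34 ± 0.931 CPM per kb (n = 8 libraries), whereas in MPP4 Bcl2 led at 15.05 ± 1.97, above Mcl1 at 10.4 ± 2.49 in 8 of 8 libraries and with Bcl2l1 last at 9.79 ± 0.605. The lengths come from an annotation and not from the transcripts of these cells, so the order depends on them.

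**Figure D1:**
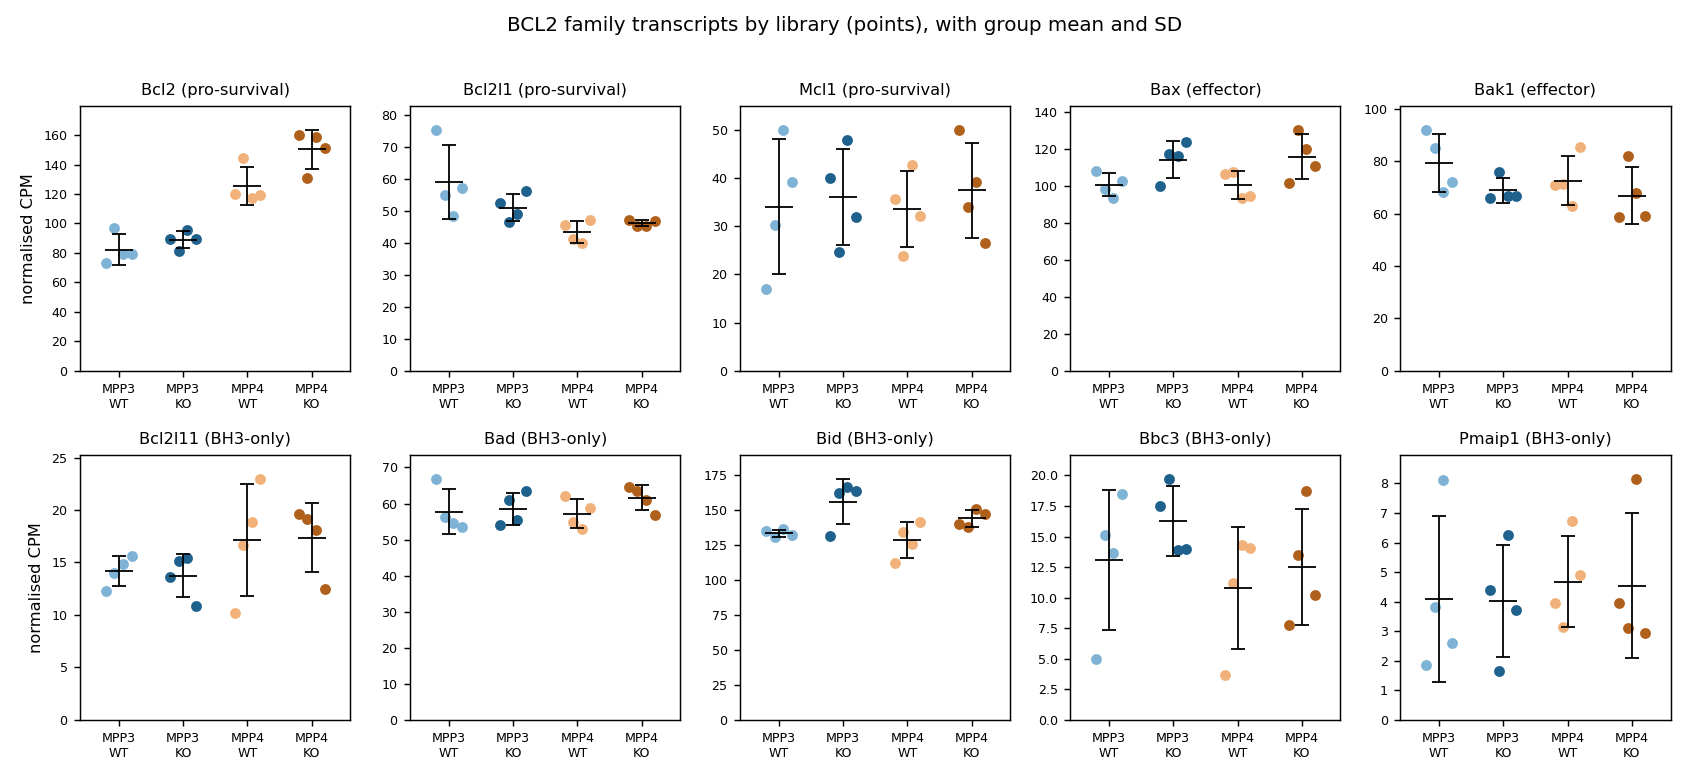
Normalised CPM (linear axes from 0) of the 10 family members in the 16 libraries, by population and labelled genotype. Points are libraries, bars the mean and SD of 4; Bcl2 separates MPP3 (73.4 to 97.2 CPM) from MPP4 (117 to 160 CPM), while Mcl1, Bbc3 and Pmaip1 spread widely within groups.

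The first comparison asked how the family differs between the populations. Bcl2, the pro-survival gene on which lymphoid cells depend, was higher in MPP4 under both labels, and Bcl2l1, which encodes BCL-XL, was higher in MPP3 of the WT mice. None of the other 8 members passed the test in either genotype. In edgeR's quasi-likelihood test with Benjamini-Hochberg adjustment over all 11831 genes (FDR, called under 0.1), 2 of 10 members were called in WT, where 15.1% of all genes were called, and 1 of 10 in KO, where 17.9% were called. The members' share was therefore not far from that of any genes. In bulk samples such as these, a change in the make-up of the sorted cells and a change in transcripts per cell cannot be told apart.

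Bcl2 stood at 73.4, 97.2, 79.0 and 79.2 CPM in MPP3 of WT mice 1 to 4. In MPP4 of the same mice it was at 120.3, 145, 117 and 119 CPM. Every MPP4 library lay above every MPP3 library, and the difference was 1.52-fold (log2 fold change of MPP3 against MPP4 -0.61, SE 0.10, 95% confidence interval -0.81 to -0.40, FDR 0.000408). In KO mice 1 to 4 the levels were 89.3, 81.2, 95.2 and 89.7 CPM in MPP3 and 159.9, 131, 159 and 152 CPM in MPP4. These groups did not overlap either, and the difference was 1.69-fold (log2 -0.76, SE 0.10, interval -0.96 to -0.55, FDR 4.02e-05). Within mice, MPP4 was above MPP3 in 8 of 8, by 1.48-fold to 1.79-fold. The gene shares exon positions with D630008O14Rik on the opposite strand, which held at most 53 counts.

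Bcl2l1 went the other way. It was at 75.5, 55.03, 48.6 and 57.1 CPM in MPP3 and at 45.7, 41.2, 40.0 and 47.2 CPM in MPP4 of WT mice 1 to 4. The groups did not overlap, and MPP3 was 1.36-fold higher (log2 0.44, SE 0.11, interval 0.20 to 0.68, FDR 0.0173). MPP3 WT replicate 1 was the highest library of the gene. Summed levels of 6 mature B and plasma cell markers were 524, 452, 129 and 109 CPM in MPP3 WT replicates 1 to 4. The sum of replicate 1 was also the highest of all 16 libraries. Without replicate 1 of MPP3 WT the log2 fold change was 0.30 and the FDR 0.0534. The part of mature B and plasma cells in the result was not tested.

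In KO mice Bcl2l1 stood at 52.5, 46.6, 49.2 and 56.2 CPM in MPP3 and at 47.2, 45.4, 45.5 and 47.0 CPM in MPP4. The groups overlapped, and the log2 difference of 0.14 (SE 0.11, interval -0.10 to 0.39) had an FDR of 0.5004. MPP3 was above MPP4 in 8 of 8 mice, and the difference between the genotypes in this contrast did not pass its own test (log2 -0.30, SE 0.16, unadjusted p = 0.0843, FDR 1.00, edgeR). A difference present in WT alone is thus not shown for Bcl2l1.

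Markers of other lineages also differed between the populations. Summed levels of 5 mast cell and basophil markers were 167 to 380 CPM in MPP3 and 19.1 to 35.8 CPM in MPP4, where Cma1 and Gzmb had 0 counts, and those of 5 erythroid and megakaryocyte markers were 93.7 to 166 CPM and 10.6 to 26.2 CPM. The 5 mature neutrophil markers summed to 8.94 to 74.8 CPM and 1.48 to 13.2 CPM, and the 4 mature T cell markers to 3.45 to 11.7 CPM and 7.48 to 13.1 CPM. Their part in the differences of Bcl2 and Bcl2l1 was not tested.

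Of all genes tested, 15.9% had WT groups that did not overlap between the populations, against 2 of 10 members, and 17.2% in KO, against 1 of 10.

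**Figure D2:**
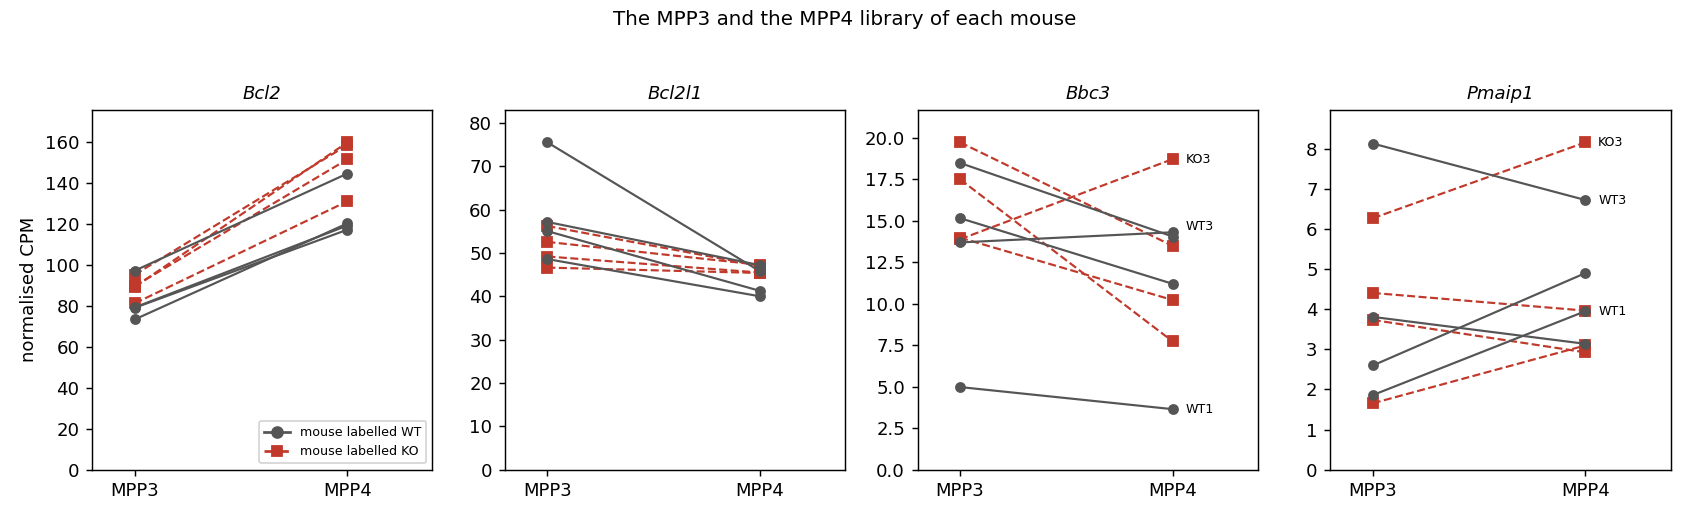
Normalised CPM (axes from 0) in the MPP3 and the MPP4 library of each mouse, joined by a line, for Bcl2, Bcl2l1, Bbc3 and Pmaip1. Bcl2 rises and Bcl2l1 falls from MPP3 to MPP4 in all 8 mice; Bbc3 is lowest in both libraries of mouse WT1, and Pmaip1 highest in those of WT3 and KO3.

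Mcl1, the third pro-survival gene, encodes a short-lived protein on which stem and progenitor cells depend. Its levels in replicates 1 to 4 of MPP3 were 17.0, 30.1, 49.9 and 39.3 CPM in WT and 39.9, 24.7, 47.8 and 31.9 CPM in KO. Those of MPP4 were 35.6, 23.7, 42.8 and 32.2 CPM in WT and 50.0, 34.0, 39.2 and 26.5 CPM in KO. Each group spanned most of the range of the gene, 1.80-fold to 2.94-fold between its lowest and highest library. The log2 difference between the populations was 0.02 in WT (SE 0.29, interval -0.58 to 0.62) and -0.05 in KO (SE 0.29, interval -0.66 to 0.55). The KO interval takes in the difference seen for Bcl2 in WT. The WT interval takes in one of that size only with the opposite sign.

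Bax, which forms the pore in the outer membrane, differed little between the populations. It was at 108, 98.4, 93.2 and 103 CPM in MPP3 WT and at 106, 107.5, 93.3 and 94.6 CPM in MPP4 WT. The log2 difference was 0.00 in WT (interval -0.19 to 0.19) and -0.02 in KO (interval -0.21 to 0.17), which limits any difference to a small one. Bak1, the other pore former, had log2 differences of 0.13 (interval -0.13 to 0.39) and 0.04 (interval -0.22 to 0.30), and a range of 58.6 to 92.1 CPM over all libraries. Both share exon positions with other genes. Bak1 does so with Ggnbp1 on the opposite strand (77 to 239 counts, against 1846 or more for Bak1). Bax does so with Gm45808 on the same strand, not analysed here. The use of strand in the counting is not given in the sources used here, so reads of opposite-strand pairs cannot be told apart. Reads on exons shared on the same strand, as for Bax, could not be separated by any strand setting.

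None of the 5 BH3-only genes passed the test between the populations, and the smallest FDR among them was 0.366. Bad, a BH3-only protein held inactive by growth factor signalling, and Bid, which links death receptors to mitochondria, had the narrowest intervals: the log2 difference of Bad was 0.01 in WT (interval -0.17 to 0.20) and -0.07 in KO (interval -0.26 to 0.11), and that of Bid 0.05 (interval -0.12 to 0.23) and 0.12 (interval -0.06 to 0.29). Bcl2l11, whose product BIM binds all pro-survival members, was lower in MPP3 in value in both genotypes, with log2 differences of -0.27 (SE 0.21, FDR 0.519) and -0.34 (SE 0.21, FDR 0.366), and in 7 of 8 mice. Its libraries ranged from 10.2 to 23.0 CPM, and the groups overlapped. Bad shares exon positions with Gpr137 (205 to 660 counts) and Bid with Bcl2l13 (1632 to 3825 counts), both on the opposite strand.

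Bbc3 and Pmaip1, both targets of p53, were scarce and uneven. In MPP3, Bbc3 was at 4.98, 15.2, 13.7 and 18.5 CPM in WT and at 17.5, 19.7, 13.9 and 14.0 CPM in KO mice 1 to 4. In MPP4 it was at 3.64, 11.2, 14.3 and 14.0 CPM in WT and at 7.73, 13.5, 18.7 and 10.2 CPM in KO. Both libraries of mouse WT1 were the lowest of all 16 for Bbc3. In MPP3, Pmaip1 was at 1.86, 3.81, 8.13 and 2.60 CPM in WT and at 4.40, 1.65, 6.27 and 3.73 CPM in KO mice. In MPP4 it was at 3.95, 3.14, 6.72 and 4.90 CPM in WT and at 3.96, 3.10, 8.16 and 2.92 CPM in KO. The 4 libraries of mice WT3 and KO3 were the highest of all 16 for Pmaip1. The standard errors of the log2 differences were accordingly wide, 0.40 for Bbc3 and 0.47 to 0.48 for Pmaip1, and the differences between the populations were 0.28 and 0.38 for Bbc3 and -0.19 and -0.17 for Pmaip1, in WT and KO.

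**Figure D3:**
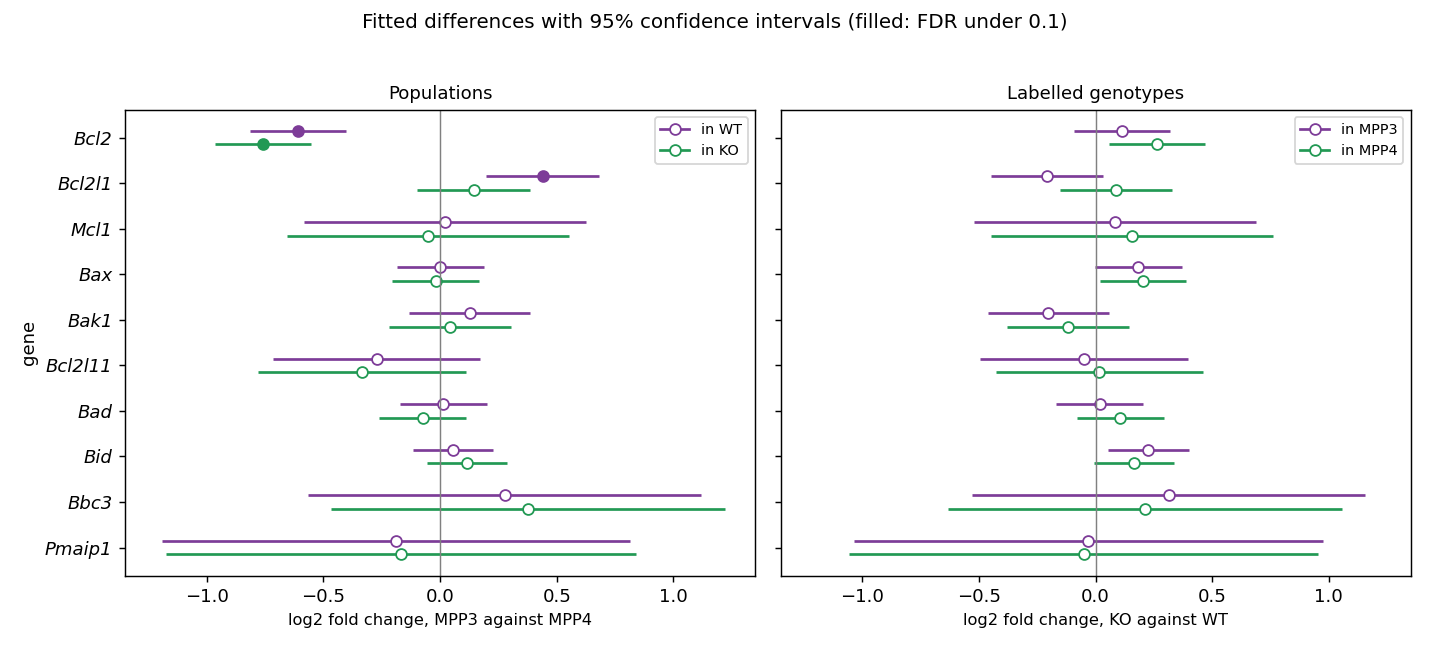
Fitted log2 fold changes (points) with 95% confidence intervals (lines) of the 10 members, MPP3 against MPP4 in each labelled genotype (left) and KO against WT in each population (right). Filled points, Bcl2 in both genotypes and Bcl2l1 in WT, had an FDR under 0.1, and no member did in the right panel.

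The second comparison asked whether the family differs between the labelled genotypes. None of the 10 members was called between KO and WT in MPP3, where 0.0676% of all genes were called, or in MPP4, where 0.0169% were. The DESeq2 Wald test, which called more genes in all (215 and 305 against 8 and 2), also called 0 members in each, with a smallest FDR of 0.234 for Bid in MPP3 and 0.155 for Bcl2 in MPP4. At an unadjusted p under 0.05, 1 member passed in MPP3 (Bid), where 10.5% of all genes did, and 2 in MPP4 (Bcl2 and Bax), where 12.8% did. The members' share was again near that of all genes.

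Bid in MPP3 was at 134, 130.2, 136 and 132 CPM in WT and at 132, 162, 166 and 164 CPM in KO replicates 1 to 4. Of the KO libraries 3 lay above all WT libraries and replicate 1 lay among them, with a fitted log2 fold change of 0.23 (SE 0.08, interval 0.05 to 0.40, FDR 0.322). In MPP4 the levels were 112, 134, 125 and 141 CPM in WT and 140.1, 137, 151 and 147 CPM in KO, with a log2 fold change of 0.17 (SE 0.08, FDR 0.410). Bcl2l13, which shares exon positions with Bid, itself had a log2 fold change of -0.03 in MPP3 and -0.34 in MPP4.

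Bax in MPP4 was at 102, 130.2, 119.7 and 111 CPM in KO, against 106, 107.5, 93.3 and 94.6 CPM in WT. The groups overlapped, and the log2 fold change was 0.20 (SE 0.09, interval 0.02 to 0.39, FDR 0.340). In MPP3 it was 0.18 (SE 0.09, interval -0.003 to 0.37, FDR 0.486), with KO libraries at 99.8, 117, 116 and 124 CPM. The values of Bcl2 in MPP4, given above, put 3 of 4 KO libraries over all WT ones, with a log2 fold change of 0.26 (SE 0.10, interval 0.06 to 0.47, FDR 0.268). In MPP3 the log2 fold change of Bcl2 was 0.11 (SE 0.10, interval -0.09 to 0.32).

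The other members had FDR values of at least 0.573 in both populations. Fitted log2 fold changes between the genotypes ran from -0.21 (Bcl2l1) to 0.31 (Bbc3) in MPP3 and from -0.12 (Bak1) to 0.26 (Bcl2) in MPP4, with standard errors of 0.08 to 0.48. For Bad the interval in MPP3 was -0.17 to 0.20, whereas for Pmaip1 it was -1.04 to 0.98, much wider. No member had genotype groups that did not overlap, against 4.57% of all genes in MPP3 and 7.27% in MPP4. Of the pro-survival genes 2 of 3 had values above 0 in MPP3 and 3 of 3 in MPP4, and of the pro-death genes 4 of 7 and 5 of 7. The medians were 0.08 and 0.16 for the pro-survival and 0.02 and 0.11 for the pro-death genes, beside -0.01 and -0.01 over all genes tested.

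The libraries of the genotypes also differed in other transcripts. The summed level of the 6 mature B and plasma cell markers was 109 to 524 CPM in MPP3 WT and 6.04 to 94.8 CPM in MPP3 KO, where Igkc, an antibody light chain, had 0 counts in 3 of 4 libraries. In MPP4 the sum was 72.8 to 147 CPM in WT and 50.8 to 116 CPM in KO. The myeloid progenitor sum was 5576 to 9333 CPM in MPP3 WT and 6664 to 15499 CPM in MPP3 KO, and 2077 to 2759 CPM and 2461 to 3734 CPM in MPP4. Of its 6 genes edgeR called none, 5 had an unadjusted p under 0.05 in MPP3 and 3 in MPP4, and DESeq2 called 3 and 2. With the mouse as a replicate block, 0 were called in MPP3 and 1 in MPP4. The lymphoid progenitor sum was 115 to 150.3 CPM and 115 to 172 CPM in MPP3, and in MPP4 it was 1440.5 to 1668 CPM in WT and 1681 to 2179.8 CPM in KO, ranges that did not overlap. Most of that sum was Dntt, a DNA polymerase of antigen receptor rearrangement, at 1127 to 1387 CPM in WT and 1404 to 1830.0 CPM in KO (FDR 0.429). Of the 6 lymphoid genes 4 had values above 0 and 2 below 0 in MPP4, among them Ccr9 at 12.6 to 14.95 CPM in WT and 8.01 to 11.6 CPM in KO (FDR 0.648), and none was called by edgeR or DESeq2 or had an unadjusted p under 0.05. Of the sort gate markers 4 were tested, and all 4 had an unadjusted p under 0.05 between the genotypes in MPP4. Kit, the stem cell factor receptor, was at 497 to 575 CPM in WT and 379 to 429 CPM in KO of MPP4 (log2 fold change -0.42, SE 0.07, FDR 0.0560), and at 702 to 835 CPM and 642 to 690.0 CPM in MPP3 (FDR 0.248). In MPP4 Flt3 was at 1159 to 1357 CPM in WT and 935 to 1089 CPM in KO (FDR 0.229), and Ly6a, which encodes SCA-1, at 47.1 to 51.9 CPM and 53.3 to 77.6 CPM (FDR 0.193). None of these pairs of ranges overlapped. The part of these differences in the values of Bid, Bax and Bcl2 was not tested.

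The third comparison was of the genotype effects between the populations. By edgeR no gene of the 11831 passed the interaction test (0% called), 2.28% had an unadjusted p under 0.05, and no member did. DESeq2 called 8 genes, none of them a member. The interaction terms of the members ran from -0.30 (Bcl2l1) to 0.10 (Bbc3) on the log2 scale, with standard errors of 0.12 to 0.67.

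The balance of the 2 sides of the family was described by the ratio of the summed CPM per kb of the 3 pro-survival genes to that of the 7 pro-death genes. In MPP3 it was 0.192 ± 0.0189 in WT and 0.177 ± 0.0287 in KO libraries, and in MPP4 0.205 ± 0.0153 and 0.215 ± 0.0349 (SD, n = 4 each). All groups overlapped, and the ratio was higher in MPP4 than in MPP3 in 7 of 8 mice. The overlap depended on the division by length. With CPM not divided by length the ratio was 0.395 to 0.456 in MPP3 and 0.470 to 0.546 in MPP4 of WT mice, which did not overlap, and 0.337 to 0.469 and 0.469 to 0.649 in KO, which overlapped narrowly, and it was higher in MPP4 in 8 of 8 mice. The pro-death sum was 166 ± 6.86 CPM per kb in MPP3 WT and 179 ± 12.4 in MPP3 KO, and 161 ± 7.63 and 175 ± 14.1 in MPP4, and it was higher in MPP4 in 4 of 8 mice. The pro-survival sum was 31.8 ± 1.86 and 31.4 ± 3.75 CPM per kb in MPP3 and 33.0 ± 1.01 and 37.5 ± 3.88 in MPP4 (WT and KO), and it was higher in MPP4 in 8 of 8 mice. Neither sum was tested. The pro-survival sum had its highest value, 42.4 CPM per kb, in MPP4 KO replicate 1, where both Bcl2 and Mcl1 were the highest of all 16 libraries.

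The make-up of the pro-survival side was described in the same way. The ratio of Bcl2 to Bcl2l1, both per kb, was 0.487 to 0.884 in WT and 0.799 to 0.970 in KO libraries of MPP3, and 1.27 to 1.76 and 1.45 to 1.75 in those of MPP4. Every MPP4 library was above every MPP3 library, as the values of both genes imply. Bcl2 made up 4.54 ± 0.601% of the family's summed level in MPP3 WT and 7.04 ± 0.673% in MPP4 WT, and 4.63 ± 0.384% and 7.74 ± 0.967% in KO. The ratio of Bcl2 to Bcl2l11, a pro-survival gene to the BH3-only gene whose product it binds, was 4.44 to 7.23 in MPP3 and 4.55 to 10.6 in MPP4, and higher in MPP4 in 8 of 8 mice.

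**Figure D4:**
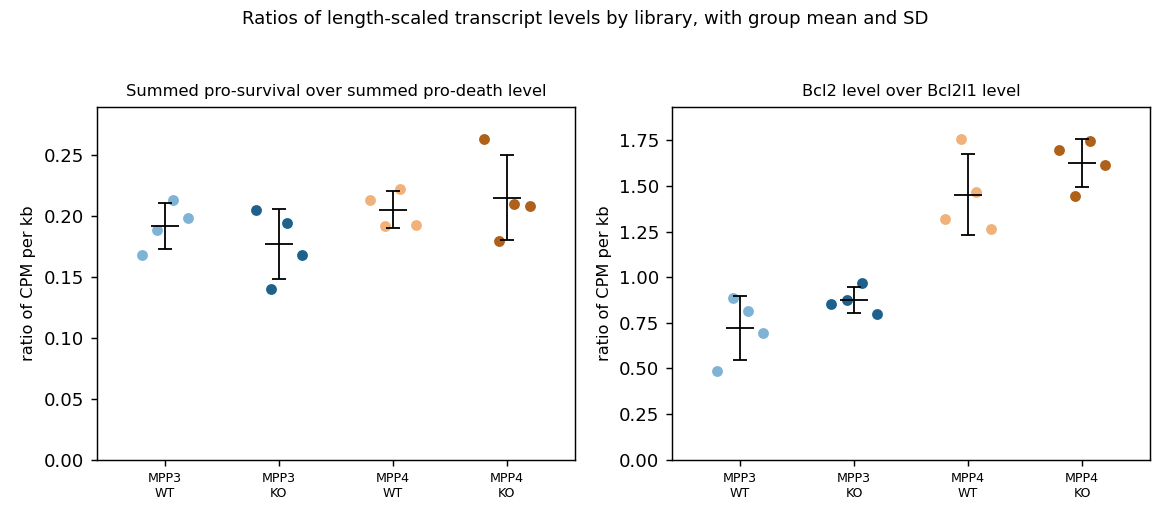
Ratio of summed pro-survival to summed pro-death CPM per kb (left) and of Bcl2 to Bcl2l1 CPM per kb (right) in each library, axes from 0, with mean and SD of 4. The left ratio overlaps among all groups (0.141 to 0.263), and the right one is under 1 in every MPP3 and over 1 in every MPP4 library.

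Levels of members in the MPP3 and the MPP4 library of a mouse were compared over the 8 mice, since 4 mice per genotype are too few for a correlation. The mean of each genotype was subtracted from log2 CPM, a step chosen after seeing the data, and mice were permuted within genotype (exact, two-sided, 576 permutations), with p-values adjusted over the 10 members' relations. Pearson's r was 0.89 for Bcl2 (exact p = 0.0399, adjusted 0.200, Spearman's rho 0.79, p = 0.0573) and 0.91 without the 2 mice farthest from the median. It was 0.84 for Bcl2l11 (exact p = 0.0174, adjusted 0.174, rho 0.57, p = 0.125), falling to 0.32 without the 2 farthest mice. No relation passed the adjustment at 0.1. With the genotype means left in, r was 0.86 for Bcl2 (exact p = 0.0150, adjusted 0.0952), 0.82 for Bcl2l11 (exact p = 0.0190, adjusted 0.0952) and 0.76 for Bax (exact p = 0.0299, adjusted 0.0997), but for Bax it was 0.56 with the means removed (exact p = 0.229, adjusted 0.382, rho 0.50, p = 0.281), turning to -0.32 without WT3 and KO1. The median r over all genes, with the means removed, was 0.40, and 5.74% of genes had an r at least as high as that of Bcl2.

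Other genes of the pathway were taken from a list of 49, of which 40 passed the filter. Between the populations 6 were called in WT, 4 higher and 2 lower in MPP3, and 3 in KO, 2 higher and 1 lower. With the mouse as a replicate block 7 were called in each genotype, and 2930 of the 11831 genes in WT and 3346 in KO. Between the genotypes and in the interaction edgeR called none.

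Among other family genes, Bcl2l2, which encodes the pro-survival protein BCL-W, was at 5.17 ± 1.45 CPM in MPP3 WT and 3.23 ± 0.608 CPM in MPP4 WT (n = 4 each, log2 0.67, SE 0.25, FDR 0.0971), a call lost in 23 of 33 alternatives, among them the mouse as a block (FDR 0.111). Its counted level, 0.846 CPM per kb, was far below those of the 3 pro-survival members. Bcl2l2 shares exon positions with Gm20521 on the same strand, not analysed here. The effect of that overlap on its counts was not tested. Bcl2l10 and Hrk had 0 counts in all 16 libraries, and the 3 Bcl2a1 paralogues, which are near-identical and share reads, did not exceed 30 counts. Bok and Bmf, an effector-like and a BH3-only gene, were tested and not called in any contrast.

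Among the other genes of the pathway, Casp8, the initiator that cleaves BID, was lower in MPP3 of WT mice (log2 -0.18, SE 0.06, FDR 0.0795). Aifm1, a mitochondrial flavoprotein, was higher in MPP3 in both genotypes (log2 0.20 and 0.21, SE 0.07 each, FDR 0.0930 and 0.0597). Vdac3, a channel of the outer membrane, was higher in MPP3 of WT mice (log2 0.19, SE 0.06, FDR 0.0804). These calls were lost in many of the 33 alternatives, that of Casp8 in 14, those of Aifm1 in 22 in WT and 8 in KO, and that of Vdac3 in 13. With the mouse as a block, calls were gained by Casp8 (FDR 0.0889) and Vdac3 (FDR 0.0694) in KO and by Casp9, the apoptosome's initiator, in WT (log2 0.50, FDR 0.0824, against 0.106 without the block).

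Of 12 genes for p53 and its targets outside the family, 10 were tested. Phlda3, an inhibitor of AKT, was at 6.70 ± 1.37 CPM in MPP3 WT and 23.6 ± 6.17 CPM in MPP4 WT (log2 -1.81, SE 0.26, FDR 0.000128), with a log2 difference of -1.75 in KO (SE 0.26, FDR 0.000145). Cdkn1a, the cell cycle inhibitor p21, was not called in the main test (log2 -0.66 in WT, SE 0.35, FDR 0.298, and -0.64 in KO, SE 0.35, FDR 0.276) but was called with the mouse as a block (FDR 0.000744 and 0.000756). Ccng1, another p53 target, was higher in MPP3 and called in KO with the block (log2 0.29, FDR 0.00812) but not without it (log2 0.28, SE 0.12, FDR 0.145). Of the 10 tested genes 5 had values above 0 and 5 below 0 in each genotype, with medians of -0.01 and -0.01. The family's p53 targets Bbc3 and Pmaip1 were not called with the block either. The 3 FOXO factors, known activators of Bcl2l11, and the 3 genes of MCL1 protein turnover had no call in any contrast by edgeR. DESeq2 called 1 of them, Foxo3, between the genotypes in MPP4 (log2 fold change -0.29, SE 0.09, FDR 0.0760).

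For the 2 members called between the populations, the 3 tested genes most like each over the 16 libraries were taken by Pearson's r of log2 CPM, a description over libraries that share their groups and mice. For Bcl2 they were Fbxw4 (r = 0.94), Cdv3 (0.94) and Ptger2 (0.94), each lower in MPP3, with log2 differences in WT of -0.93, -0.35 and -2.41. For Bcl2l1 they were Dhdh (r = 0.83), Heatr5a (0.81) and Sipa1l1 (0.79), with log2 differences in WT of 0.50, 0.78 and 0.63.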

How the data were processed

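Per the submitters' processing notes and the study's methods, the authors aligned paired reads of 100 bases to mm10 with STAR 2.7.3a, counted them per gene with featureCounts 2.0.0, and deposited raw read counts per gene for each population. The annotation release and strand setting are not given in the sources used here. The authors' normalised table was not used. Symbols, exon lengths and positions came from GENCODE M21 (GRCm38), which matched 47224 of 47937 identifiers. Counts were normalised by TMM and tested in R 4.3.3 with edgeR 4.0.16 (quasi-likelihood F-test, legacy deviances), in 1 model of the 4 groups over all 16 libraries without covariates, on the 11831 genes whose mean exceeded 100 counts in at least 1 group. FDR is the Benjamini-Hochberg value over all these genes. Alternatives used DESeq2 1.42.0 and limma 3.58.1, other filters, covariates, a mouse block, and the data without each library or mouse.

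Members and lists were chosen with earlier results of these data known. The 10 members are always named, genes of other lists where called in at least 1 contrast, Cdkn1a, Ccng1 and Casp9 because their calls changed with the block, and the remaining genes as members of their lists. For 1 called gene of the pathway lists, the values are not reported here. Each genotype and number, shared with sex and age by an MPP3 and an MPP4 label, was taken as 1 mouse. Deviations from group means correlated within mice at r = 0.274 to 0.528, each above the highest with another mouse. Replicates differed by 23.8 to 79.6 chi-square units per gene and were kept apart. The series description calls the replicates biological, and the labels give no batch or date.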

Additional observations from a re-analysis of the deposited data

Results flagged for a closer look

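In 40 groups of 4 libraries (10 members in 4 groups), 3 libraries stood far from the other 3 of their group, where chance gives about 1 in 20. Bcl2 in MPP4 WT replicate 2 was at 145 CPM, the others between 117 and 120.3 CPM. Bak1 in MPP3 KO replicate 2 was at 76.1 CPM, the others between 66.2 and 66.9 CPM. Bid in MPP3 KO replicate 1 was at 132 CPM, the others between 162 and 166 CPM.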

How the results depend on the processing

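Across 33 alternatives, 24 of them leaving out libraries, no call of a member changed. Bcl2 kept log2 differences of -0.70 to -0.53 in WT and -0.82 to -0.71 in KO, with FDR up to 0.00434 and 0.000894. Bcl2l1 in WT kept 0.30 to 0.52, with FDR up to 0.0709. With the mouse as a replicate block the FDR of Bcl2 was 4.95e-06 in WT and that of Bcl2l1 0.00352, and the block changed no call of a member. Of the 9 calls of other pathway genes, 5 were lost in at least 1 alternative (Bcl2l2, Casp8 and Vdac3 in WT, and Aifm1 in both genotypes). The ratio of pro-survival to pro-death levels, which depends on lengths and on Mcl1, was 0.437, 0.411, 0.519 and 0.557 without division by length and 0.131, 0.117, 0.144 and 0.152 without Mcl1 (MPP3 WT, MPP3 KO, MPP4 WT, MPP4 KO).

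Of the members' uncalled log2 differences, some changed sign, all within their errors, and the cause was not tested. MPP3 against MPP4 in WT was -0.0104 for Mcl1 with sex as a term and -0.0417 with the replicate block, and for Bax -0.0098 with all genes, -0.0094 with filterByExpr and -0.0005995 with only the 8 libraries compared. KO against WT with age as a term was 0.60 in MPP3 and 0.61 in MPP4 for Pmaip1 (interaction -0.0131), and in MPP4 -0.20 for Bcl2l11 and -0.0304 for Bbc3. With the block it was 0.0524 for Pmaip1 in MPP3. Without single libraries or mice, the ranges for KO against WT in MPP3 were -0.14 to 0.33 for Mcl1, -0.11 to 0.0492 for Bcl2l11, -0.0233 to 0.10 for Bad and -0.33 to 0.55 for Pmaip1. In MPP4 they were -0.0166 to 0.29 for Mcl1, -0.17 to 0.19 for Bcl2l11, -0.0759 to 0.39 for Bbc3 and -0.49 to 0.18 for Pmaip1. For the interaction they were -0.33 to 0.17 for Mcl1, -0.0777 to 0.0421 for Bax, -0.22 to 0.0290 for Bak1, -0.24 to 0.12 for Bcl2l11, -0.17 to 0.42 for Bbc3 and -0.28 to 0.60 for Pmaip1. Between the populations in WT they were -0.22 to 0.28 for Mcl1, -0.0366 to 0.0479 for Bax, -0.0631 to 0.0642 for Bad, -0.0050 to 0.11 for Bid, -0.0119 to 0.55 for Bbc3 and -0.77 to 0.0511 for Pmaip1. In KO they were -0.22 to 0.12 for Mcl1, -0.0760 to 0.0431 for Bax, -0.0160 to 0.16 for Bak1 and -0.47 to 0.27 for Pmaip1. Each group held 4 mice, and the parts of the number of mice and of depth in the precision were not tested.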
